A study of Mus musculus with 10 samples.

Results

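Signal was followed for 10 genes that act at the entry to the cell cycle. They are the D-type cyclins *Ccnd1*, *Ccnd2* and *Ccnd3*, the cyclin-dependent kinases *Cdk4* and *Cdk6* that these activate, the CDK inhibitors *Cdkn1a*, *Cdkn1b*, *Cdkn1c* and *Cdkn2c*, and the retinoblastoma gene *Rb1*. Members were taken by name, as every non-control probe that the array design assigns to one of these symbols. All 10 were found among 24183 named genes, on 16 of the 55681 probes of the array. *Cdk4* and *Cdkn1a* had 3 probes each, *Ccnd3* and *Cdkn1b* had 2 each, and each of the others had 1.

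RNA came from 10 samples, each on an Agilent mouse array with Cy3 as its dye. Germline stem (GS) cells, spermatogonia that self-renew in culture, were held for 3 days without FGF2 and GDNF. They were then kept for 24 hr with 100 ng/mL FGF5 (2 samples) or without FGF5 (2 samples). The labels describe these cells as wild type of strain C57BL/6, whereas the methods derive them from C57BL/6 x ICR mice. GFRα1+ spermatogonia were isolated as GFP+ cells from testes of mice aged 2.5 months that carried an EGFP knock-in at *Gfra1*. There were 3 samples from WT mice and 3 from *Fgf5*-/- mice, which carry the go-moja null allele, all on C57BL/6 and all with the knock-in. Samples of a group came from independent experiments, 2 for the culture and 3 for the sorted cells. Whether a sorted sample pooled several mice was not given in the sources used here.

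D-type cyclins are the cyclins whose abundance follows growth factor signals. Together with CDK4 or CDK6 they phosphorylate the RB protein, which then releases E2F transcription factors, and these activate genes for DNA replication. INK4 inhibitors, such as the product of *Cdkn2c*, bind CDK4 and CDK6 themselves, whereas the CIP/KIP inhibitors p21, p27 and p57 (*Cdkn1a*, *Cdkn1b* and *Cdkn1c*) bind cyclin-CDK complexes. In the testis, *Rb1* is known to be needed for the long-term upkeep of spermatogonial stem cells.

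Levels are log2 signals from which the array's own 75th percentile was subtracted, so that 0 stands for a signal at that percentile. Probes differ in how strongly they bind, and each member probe was compared only with itself across arrays. Marker lists were summed over probes, so that bright probes weigh most in a sum, and the brightest one is named without ranking the amounts of transcripts. Where a gene had several probes, the one with the highest mean signal is called its main probe, and counts over lists of genes are counts of main probes. On all 10 arrays, 12 of the 16 member probes were well above background by the scanner software's flag. The exceptions were 2 of the *Cdkn1a* probes, on 0 and 1 arrays, the dimmer *Cdkn1b* probe, on 2 of 4 cultured and 6 of 6 sorted arrays, and the *Cdkn2c* probe, on 1 of 4 cultured and 6 of 6 sorted arrays.

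Replicate 1 of the *Fgf5*-/- cells stood apart from the other sorted samples. On its array 65.9% of the probes were well above background, against 55.3% to 61.6% on the other sorted arrays and 62.8% to 65.2% on the cultured ones. A signal at least 2-fold away from the median of the other sorted arrays was seen for 3.56% of 28492 probes there, and for 0.456% to 1.83% on the others. The *Fgf5* probe was well above background on that array (log2 signal -3.42) but on 0 of the 3 WT arrays and 0 of the other 2 *Fgf5*-/- arrays. It therefore gave no check of the genotype in sorted cells, and whether the probe lies in the part altered in the go-moja allele was not given in the sources used here. For the main probes of the genes named in the genotype comparison, the log2 difference is also given without this sample. Among the cultures, replicate 2 with FGF5 stood apart most, with 4.1% of 32648 probes at least 2-fold from the others, against 2.19% to 2.81%.

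Markers of the cell types that the samples could hold were read beside the cell cycle genes. All 12 markers of undifferentiated spermatogonia were well above background on every array. *Zbtb16*, which encodes the transcription factor PLZF, had the brightest probe of that list. The linear signals of the list summed to 215 to 231 times the 75th percentile in cultures, 248 to 261 in WT cells and 220 to 256 in *Fgf5*-/- cells. Markers of differentiating spermatogonia, led by *Sohlh1*, summed to 63.6 to 87.1 in cultures and 122 to 145 in sorted cells.

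Markers of peritubular cells and fibroblasts, led by the collagen gene *Col1a1*, summed to 25.0 and 15.7 with FGF5, 27.3 and 17.5 without FGF5, and 8.02 to 9.41 in sorted cells. In cultured against sorted cells, 8 of the 11 tested genes of this list were called higher and 1 lower, where 41.9% and 25.7% of all tested probes were, and *Col1a2* was 12.6-fold higher in culture. Of these genes, 11 were tested within the cultures and 9 within the sorted cells, so that some entered only through the cultures. Between the genotypes, 3 of 9 tested genes of the list were higher and 6 lower in *Fgf5*-/- cells, or 4 and 5 without replicate 1 of the *Fgf5*-/- cells. Of the 9, 0 were called in limma and 5 had an unadjusted p under 0.05, against 6.77% of all tested probes. For 4 of the 9, or 3 without *Col3a1*, the genotypes did not overlap, against 16.2% of all tested probes. *Col3a1* was well above background on 3 of 3 *Fgf5*-/- and 1 of 3 WT arrays, and was thus tested only through the group in which it is high. Its measured log2 difference of 1.96 (adjusted p = 0.729) rests on WT signals that mostly lay in the background, and was 2.26 without replicate 1 of the *Fgf5*-/- cells and 0.87 after normexp background correction. *Col6a1* was higher without overlap by 0.54, and *Fbln1* and *Vim* were lower by -0.32 and -0.51, or 0.48, -0.26 and -0.29 without that sample. Within the culture, the samples with replicate number 1 had the higher *Col1a1* signal in both conditions (3.48 and 3.71, against 1.57 and 2.02 in those with number 2). Signals of *Col1a2*, *Col3a1*, *Col6a1* and *Dcn* were instead higher in the samples with number 2 in both conditions, so the list as a whole did not divide the cultures in 1 direction. Macrophage and blood markers, led by *Csf1r*, summed to 3.68 to 4.48 in cultures and 0.958 to 1.98 in sorted cells. Leydig cell markers, led by *Cyp17a1*, summed to 5.01 to 6.65 and 0.43 to 1.96, with 2 of the 6 genes on the array bright enough to be tested. Endothelial markers, led by *Egfl7*, summed to 20.9 to 24.7 in cultures and 12.1 to 16.9 in sorted cells.

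Spermatid markers, led by *Tnp1*, ran the other way, with sums of 1.65 to 2.17 in cultures and 5.36 to 17.1 in sorted cells. Sertoli cell markers, led by *Ctsl*, which other cells express too, summed to 18.9 to 24.9 and 29.0 to 46.3. Spermatocyte markers, led by *Sycp3*, summed to 24.6 to 33.7 and 22.1 to 25.4. In cultured against sorted cells, the genes called higher and lower numbered 3 and 5 for undifferentiated spermatogonia, 0 and 2 for differentiating ones, 2 and 4 for spermatocytes and 0 and 4 for spermatids. They numbered 1 and 4 for Sertoli cells, 2 and 0 for Leydig cells, 2 and 2 for endothelial cells and 4 and 0 for macrophages and blood. Of the macrophage and blood genes, 5 were tested within the cultures and 3 within the sorted cells, so that some entered only through the cultures. Others entered only through the sorted cells, since these numbers were 8 and 9 for spermatocytes, 4 and 5 for spermatids and 4 and 5 for endothelial cells. Of the Sertoli genes, 6 were tested within either material and 7 between them, so that some entered through a single material. Of all tested probes 41.9% were called higher and 25.7% lower. Replicate 1 of the *Fgf5*-/- cells had the lowest sums among sorted samples for the undifferentiated (220), spermatid, Sertoli, Leydig, endothelial and macrophage lists, and the highest for spermatocytes (25.4). The part of other cell types in the results was not tested.

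With FGF5, 3 of the 12 markers of undifferentiated spermatogonia were higher and 9 lower, with a median log2 difference of -0.11 against -0.03 over all tested probes. They had 0 calls in limma and 2 at an unadjusted p under 0.05, against 2.55% of all tested probes. Without overlap 2 were higher and 4 lower, against 22.8% of all tested probes. The list's widest difference on main probes was that of *Etv5*, which encodes a transcription factor needed for the upkeep of spermatogonial stem cells. Its log2 signal was 3.04 and 4.32 with FGF5 and 0.51 and -0.99 without FGF5, so that the conditions did not overlap (log2 difference 3.93, SE 0.67, adjusted p = 1). The other higher markers were *Gfra1* (1.55, with overlap) and *Ret* (1.45), which encode subunits of the GDNF receptor. Without replicate 2 with FGF5 they stood at 0.55 and 0.88, and *Gfra1* stood at 0.57 without replicate 1 of the cultures without FGF5. Among the lower ones without overlap were *Pou5f1* (-0.46) and *Nanos2* (-0.22), or -0.32 and -0.14 without replicate 2 with FGF5.

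In the other lists the markers higher and lower with FGF5 numbered 1 and 4 for differentiating spermatogonia, 2 and 6 for spermatocytes, 1 and 3 for spermatids and 5 and 1 for Sertoli cells. They numbered 0 and 2 for Leydig cells, 4 and 7 for fibroblasts, 4 and 0 for endothelial cells and 2 and 3 for macrophages and blood. None was called in limma, and 1 macrophage gene had an unadjusted p under 0.05. Without replicate 2 of the cultures without FGF5 the counts were 6 and 2 for spermatocytes, 3 and 3 for Sertoli cells and 7 and 4 for fibroblasts. With either culture with FGF5 left out, fibroblasts had 6 and 5. Without replicate 1 with FGF5 the counts were 4 and 5 for spermatocytes and 5 and 7 for undifferentiated spermatogonia, which also had 5 and 7 without replicate 2 of the cultures without FGF5. *Spo11*, among those higher spermatocyte genes, entered there only through the remaining culture with FGF5, in which it is high. Spermatids had 3 and 2 without replicate 2 with FGF5, and endothelial cells 2 and 2 without replicate 1 of the cultures without FGF5. *Tnp2*, among those higher spermatid genes, entered there only through the remaining culture with FGF5, in which it is high. The widest differences of these lists on main probes were -0.42 for *Stra8*, -0.25 for *Ldhc*, 0.29 for *Spaca1*, 0.73 for *Sox9*, -0.13 for *Star*, 0.43 for *Thy1*, 0.13 for *Kdr* and 0.52 for *Cd68*, so that *Spaca1*, *Thy1* and *Cd68* ran against most genes of their lists. The second *Kdr* probe was higher by 1.52 (SE 0.38, adjusted p = 1) without overlap, or by 0.99 without replicate 2 with FGF5. Without replicate 2 of the cultures without FGF5, *Ldhc*, *Spaca1*, *Sox9* and *Star* turned to 0.04, -0.17, -0.16 and 0.14, and *Stra8* and *Thy1* stood at -0.17 and 0.10. *Cd68* stood at 0.16 without replicate 2 with FGF5, and *Kdr* at 0.04 without replicate 1 with FGF5.

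Between the genotypes the markers higher and lower in *Fgf5*-/- cells numbered 5 and 7 for undifferentiated spermatogonia, 2 and 3 for differentiating ones, 6 and 3 for spermatocytes and 3 and 2 for spermatids. They numbered 2 and 4 for Sertoli cells, 1 and 1 for Leydig cells, 3 and 2 for endothelial cells and 0 and 3 for macrophages and blood. Without replicate 1 of the *Fgf5*-/- cells these counts were, in the same order, 8 and 4, 3 and 2, 6 and 3, 5 and 0, 4 and 2, 1 and 1, 2 and 3, and 2 and 1. These lists had 0 calls in limma and 3 genes at an unadjusted p under 0.05. The widest marker of its list on main probes was *Etv5* again for undifferentiated spermatogonia (log2 difference -0.31, or -0.23 without replicate 1 of the *Fgf5*-/- cells). It was *Dmrtb1* for differentiating ones (-0.43, or -0.42), *Spo11* for spermatocytes (0.78, or 0.65), *Prm1* for spermatids (0.61, or 1.18) and *Cldn11* for Sertoli cells (-1.01, or -0.32). The others were *Cyp17a1* (-1.06, or -0.41), *Col1a2* among fibroblast genes well above background throughout (-0.71, or -0.83), *Kdr* (-0.39, or -0.08) and *Csf1r* (-0.57, or 0.06). On the second *Kdr* probe the *Fgf5*-/- cells were lower without overlap (-0.36, or -0.44). None of these was called in limma, and *Prm1* turned to -0.12 without replicate 3 of the *Fgf5*-/- cells. In cultured against sorted cells, the widest markers past the threshold were sought among genes well above background throughout. They were *Etv5* (log2 difference -3.50), *Stra8* (-3.14), *Ldhc* (1.44), *Tnp1* (-4.52), *Rhox5* (-2.33), *Cyp17a1* (2.30), *Kdr* (1.43) and *Csf1r* (1.71), beside *Col1a2* given above. The second *Kdr* probe was called the other way (-2.26), and *Ldhc* was not called when either culture group alone was compared with WT cells. Among genes outside that limit, *Spo11* (-2.41) and *Cdh5* (-2.35) were called lower and differed more widely than *Ldhc* and *Kdr*. *Cldn11* (-2.45) was called lower and differed more widely than *Rhox5*. *Spo11* and *Cldn11* entered only through the sorted groups, in which they are high. *Cdh5* missed the limit only in replicate 1 of the cultures without FGF5.

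**Figure D1:**
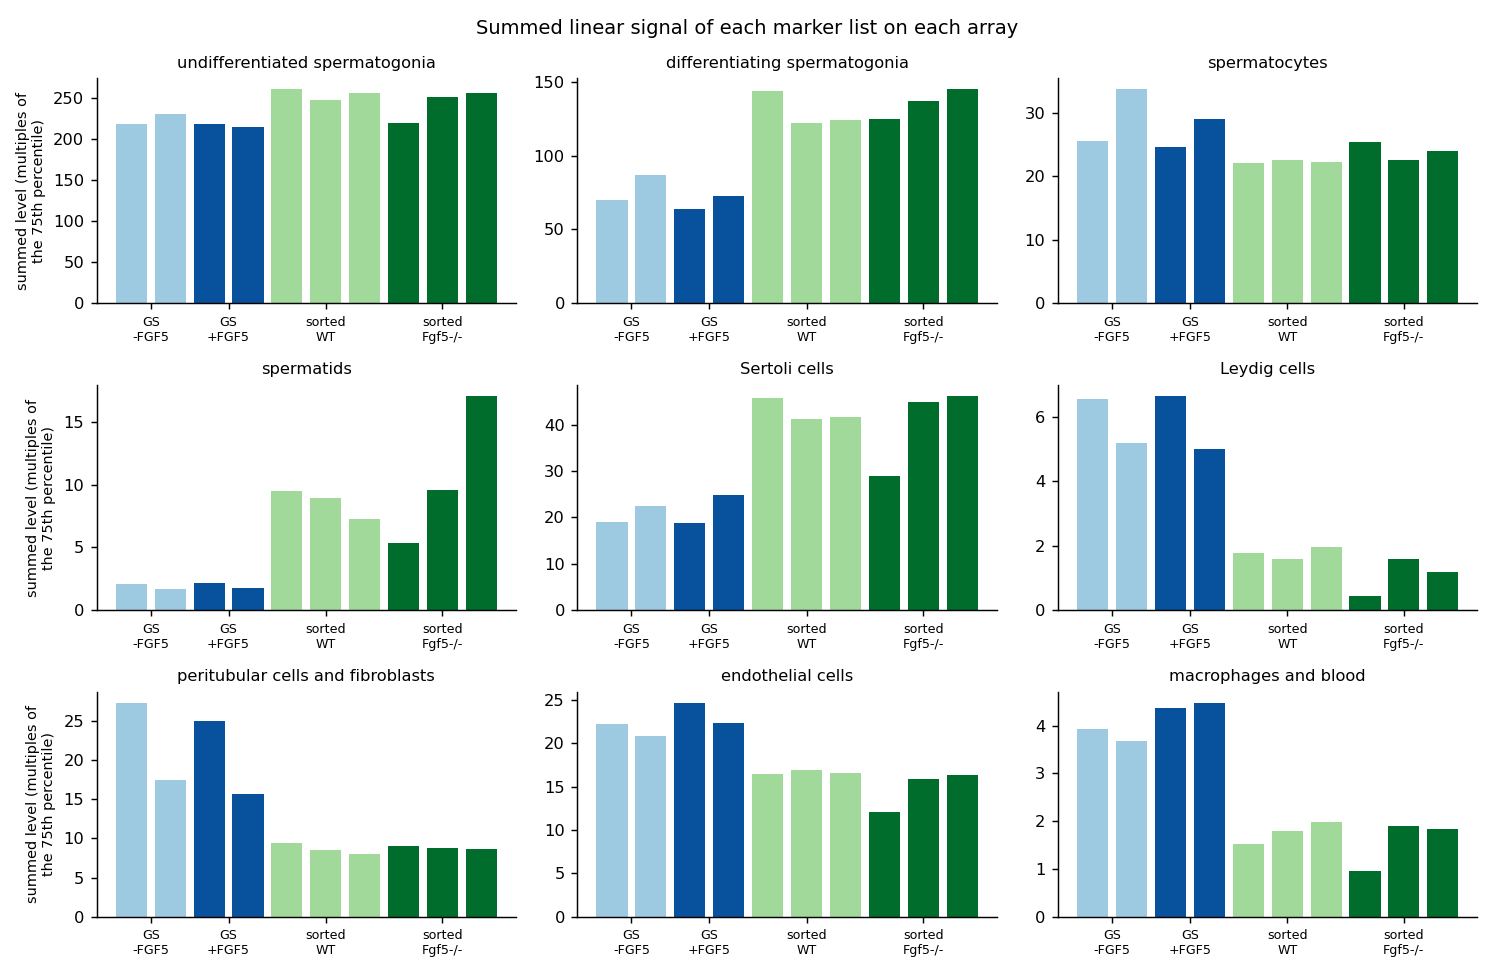
Summed signal of the marker genes of each cell type on each of the 10 arrays, as multiples of the array's 75th percentile, with the replicates of a group side by side in the order of their numbers and a separate vertical scale for each list. The sums of the fibroblast, Leydig, endothelial and macrophage lists are higher in the 4 cultures, although 2 endothelial genes were called in each direction. Those of the spermatid, Sertoli and differentiating lists are higher in the 6 sorted samples.

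The comparison of cultures with and without FGF5 asks how spermatogonia respond to this factor. Of the 9 member genes tested there, 4 were higher and 5 lower with FGF5, and 0 passed an adjusted p of 0.05 in limma, as did 0% of all 34608 tested probes. At an unadjusted p under 0.05 there were 1 of the member genes and 882 of all tested probes. *Ccnd2* was the only member gene whose arrays did not overlap between the conditions, a share of 1 in 9, and 22.8% of all tested probes did not overlap. The median log2 difference was -0.06 over the members and -0.03 over all tested probes. With each culture left out in turn, 3 to 5 members were higher with FGF5 and their median lay between -0.31 and 0.04.

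The comparison of genotypes asks whether sorted cells differ when the mouse lacks *Fgf5*. All 10 member genes were tested, 2 were higher and 8 lower in *Fgf5*-/- cells, and 0 passed the threshold in limma, as did 0% of 30283 tested probes. At an unadjusted p under 0.05 there were 1 of the member genes and 2051 of all tested probes. For 4 of the 10 genes the genotypes did not overlap, against 16.2% of all tested probes, and all 4 were lower in *Fgf5*-/- cells (*Ccnd1*, *Ccnd3*, *Cdkn1a* and *Cdkn1c*). The median log2 difference was -0.19 over the members and -0.03 over all tested probes. Quantile normalization moved the members' median to -0.06, and leaving out replicate 1 of the *Fgf5*-/- cells moved it to -0.11. Without that replicate 6 of all tested probes passed, and without replicate 3 of the *Fgf5*-/- cells 5 passed, with 0 member probes among them.

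Cultured and sorted cells differed far more widely. Lower in culture were 7 of the 10 member genes, with *Ccnd1*, *Ccnd2*, *Cdk4*, *Cdk6*, *Cdkn1b*, *Cdkn1c* and *Cdkn2c* past the threshold, where 25.7% of 35823 tested probes were called lower. Only *Rb1* was called higher among the members, where 41.9% of the tested probes were. *Ccnd3* and *Cdkn1a* were not called. *Cdkn2c* entered this test only through the sorted groups, in which it is high. The median log2 difference was -0.49 over the members and 0.26 over all tested probes, a value that quantile normalization shifted by -0.12 and a percentile taken over probes well above background by 0.15. Under these scalings the members' median was -0.61 and -0.34. When only probes well above background on every array were kept, *Cdkn2c* dropped out. Of 9 member genes 6 were then called lower, with a median of -0.40 against 0.08 over all tested probes. Each material had its own slide and scan, and all cultures had been held for 3 days without FGF2 and GDNF. Culture, this withdrawal of factors, strain, preparation and slide therefore cannot be told apart. As in any bulk sample, fewer cells of a type and less RNA per cell cannot be told apart either.

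**Figure D2:**
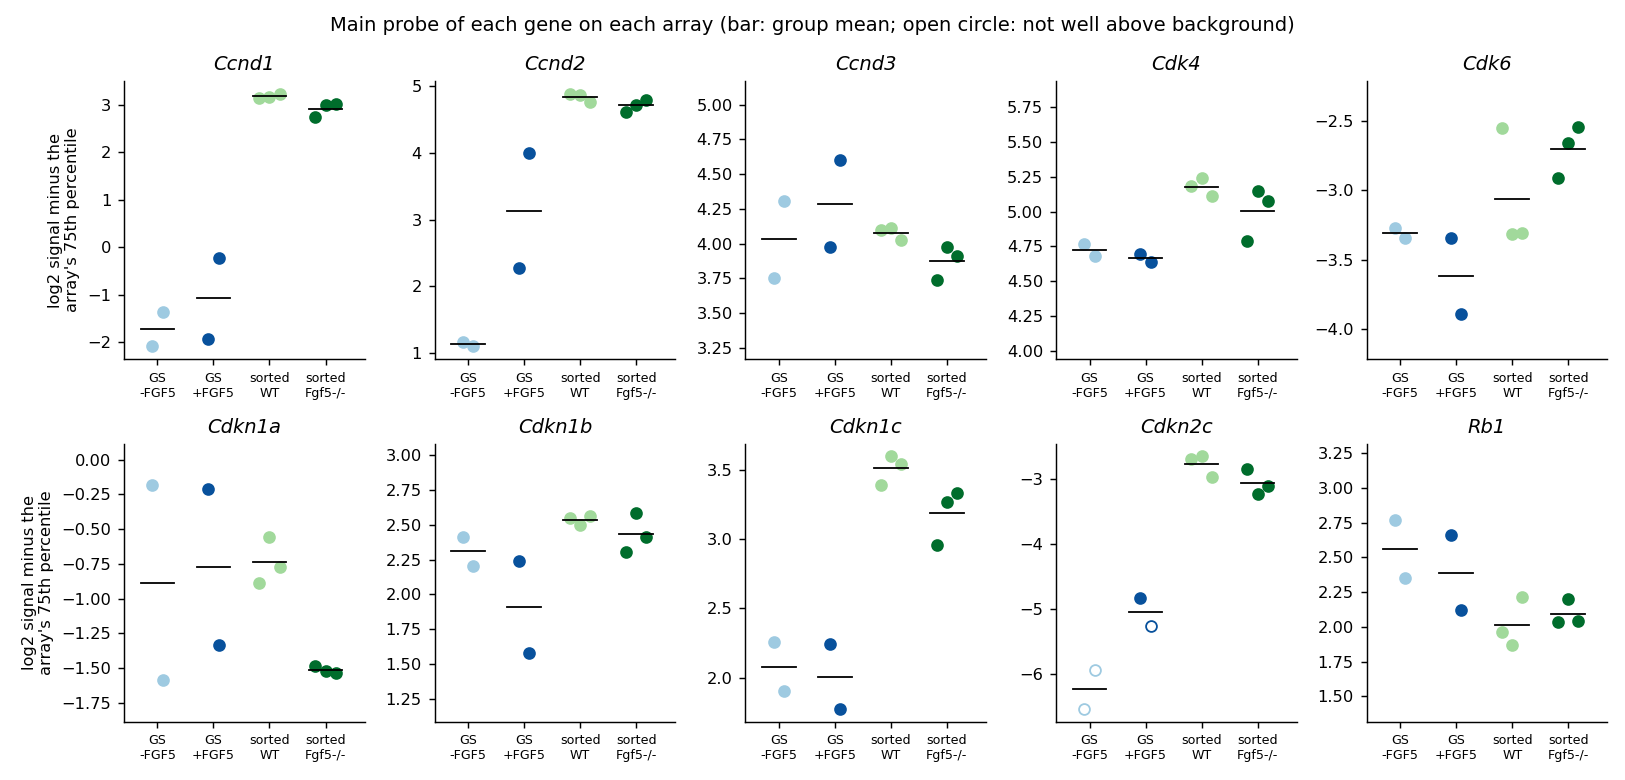
Log2 signal of the main probe of each gene on each array, with replicates in the order of their numbers, bars at the group means and a separate vertical scale for each gene, and open circles where the probe was not well above background. *Ccnd1*, *Ccnd2*, *Cdk4*, *Cdkn1c* and *Cdkn2c* are lower on all 4 cultured arrays than on all 6 sorted ones, and *Ccnd2* is the only tested gene that separates the cultures with FGF5 from those without.

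Among the D cyclins, *Ccnd1* (NM_007631; probe at chr7:152116202-152116261 of mm9) encodes cyclin D1, a common target of growth factor signaling. Its log2 signal was -1.93 and -0.23 with FGF5 and -2.09 and -1.36 without FGF5. The WT cells had 3.15, 3.17 and 3.23, and the *Fgf5*-/- cells 2.75, 2.99 and 3.02. Every sorted sample was far above every culture, and the cultures overlapped between the conditions because replicate 1 with FGF5 lay below replicate 2 without it. The level was 21.9-fold lower in cultured than in sorted cells (log2 difference -4.45, SE 0.31, adjusted p = 1e-05). With FGF5 it was 1.57-fold that without FGF5 (SE 0.63 on the log2 scale, adjusted p = 1), and without replicate 2 with FGF5 the log2 difference turned to -0.20, while without replicate 1 with FGF5 it was 1.5. In sorted cells each *Fgf5*-/- sample lay below each WT sample, with a log2 difference of -0.27 (SE 0.11, adjusted p = 0.729), or -0.18 without replicate 1 of the *Fgf5*-/- cells.

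*Ccnd2* encodes cyclin D2. Its single probe carries the widest FGF5 difference among the members, so its sequence is shown with that of the *Cdk4* probe that differed most between cultured and sorted cells. They are read in the direction of the transcript, and lie at chr6:127098696-127098755 (minus strand) and chr10:126503162-126503221 (plus strand) of mm9.
Ccnd2 probe: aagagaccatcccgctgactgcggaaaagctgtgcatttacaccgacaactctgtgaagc
Cdk4 probe: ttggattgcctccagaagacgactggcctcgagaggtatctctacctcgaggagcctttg

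The *Ccnd2* signal (NM_009829) was 2.27 and 4.0 with FGF5, and 1.17 and 1.09 without FGF5. It was 4.89, 4.87 and 4.76 in WT cells and 4.62, 4.72 and 4.80 in *Fgf5*-/- cells. Both cultures with FGF5 were above both without it, and all 4 were below every sorted sample. The cultures without FGF5 nearly coincided (1.13 ± 0.05, SD, n = 2), whereas those with FGF5 were far apart (3.13 ± 1.22, SD, n = 2). The group means differed 4.01-fold (SE 0.59 on the log2 scale, 95% interval of the log2 difference 0.45 to 3.56, adjusted p = 1). A difference of at least 4-fold in either direction was seen for 0.225% of the tested probes. The log2 difference was 1.14 without replicate 2 with FGF5 and 2.87 without replicate 1.

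In sorted cells the genotypes overlapped for *Ccnd2*, with a log2 difference of -0.13 (SE 0.10, adjusted p = 0.78) that quantile normalization turned to 0.01. It was -0.08 without replicate 1 of the *Fgf5*-/- cells. Against sorted cells the cultures were 6.27-fold lower (log2 difference -2.65, SE 0.29, adjusted p = 8.52e-05). This gap depended on the cultures compared. The log2 difference from WT cells was -1.71 for the cultures with FGF5 and -3.71 for those without.

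*Ccnd3* encodes cyclin D3, and its 2 probes differed little between groups. The main probe (NM_001081636) gave 3.97 and 4.60 with FGF5 and 3.76 and 4.30 without FGF5, 4.10, 4.11 and 4.02 in WT cells, and 3.74, 3.97 and 3.91 in *Fgf5*-/- cells. The cultures overlapped both sorted groups, and the lowest of all values was that of replicate 1 of the *Fgf5*-/- cells. Within sorted cells every *Fgf5*-/- value was below every WT value, by a mean of -0.20 for this probe (SE 0.11, adjusted p = 0.748) and -0.23 for the other (SE 0.11, adjusted p = 0.732). Without replicate 1 of the *Fgf5*-/- cells these were -0.13 and -0.21, and quantile normalization brought the main probe to -0.10. In cultured against sorted cells neither probe was called, with log2 differences of 0.18 and 0.16. Both were slightly below 0 when only cultures without FGF5 and WT cells were compared (-0.05 and -0.13).

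The order of the groups was therefore not the same for the 3 D cyclins. For *Ccnd1* it ran from WT through *Fgf5*-/- cells to the cultures with and then those without FGF5, and only the 2 culture groups overlapped. For *Ccnd2* the order was the same, but the 2 sorted groups overlapped and the culture groups did not. For *Ccnd3* each group overlapped its neighbour in the order.

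**Figure D3:**
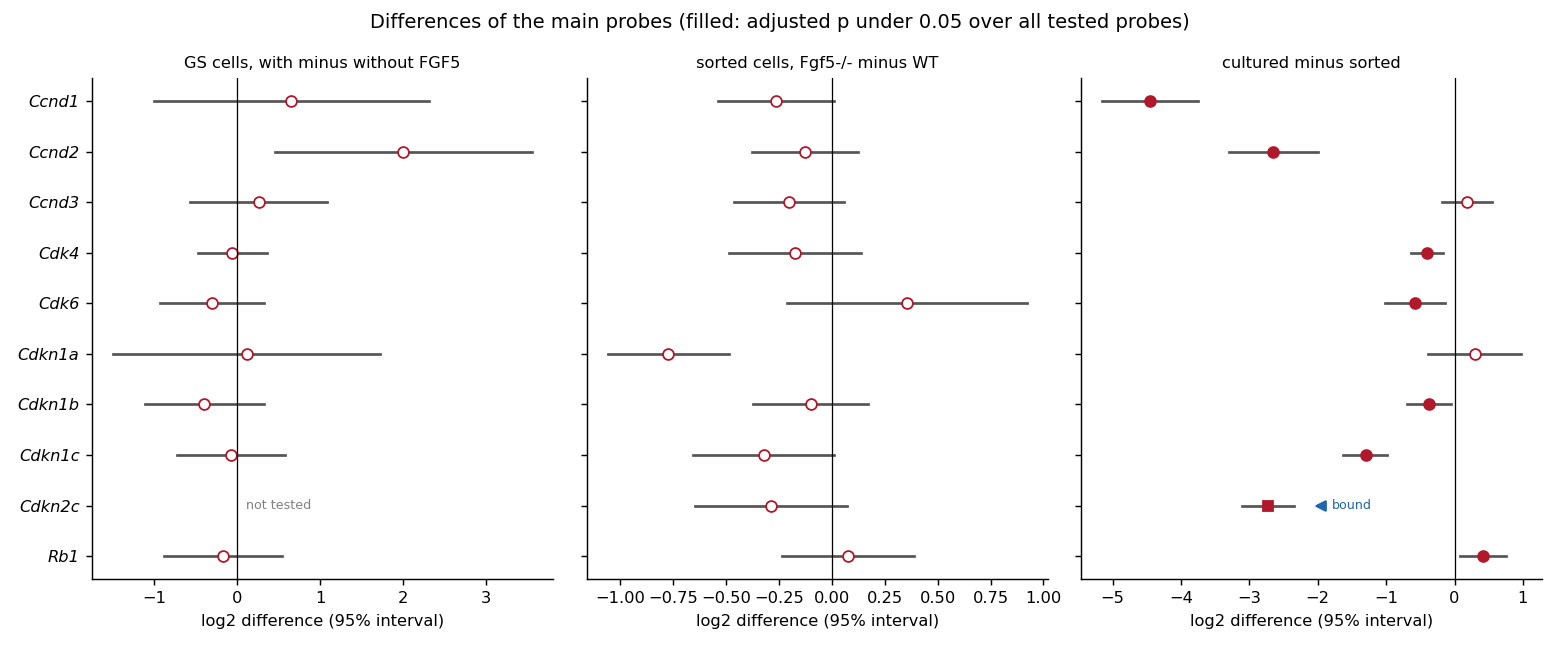
Log2 differences of the main probe of each gene in the 3 comparisons with unadjusted 95% intervals from limma, each panel with its own horizontal scale, and filled symbols where the adjusted p was under 0.05. The interval of *Ccnd2* in culture runs from 0.45 to 3.56 without the adjusted p passing, and the square for *Cdkn2c* is a value measured on 1 of 4 cultured arrays, with a triangle at its bound of -1.95.

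Genes whose pattern was most like that of a D cyclin were sought among 19933 named probes well above background on all 10 arrays, after the mean of each material was subtracted. For *Ccnd2* these were *Tmc6*, *Arhgap31* and *Nefm*, with Pearson's r of 0.994, 0.992 and 0.99 over 10 arrays. *Nefm*, which encodes a neurofilament subunit, had log2 signals of -0.53 and 1.64 with FGF5 and -2.72 and -2.76 without FGF5. It shared with *Ccnd2* the low values without FGF5 and the wide gap between the cultures with FGF5, while its sorted samples lay between 2.41 and 2.69. For *Ccnd1* the nearest were *Irgm1*, *Car6* and *Drosha* (r of 0.989, 0.988 and 0.987), and for *Ccnd3* they were *Arl6ip4*, *H19* and *Glul* (0.988, 0.986 and 0.976). The 10 points are not alike, since the 4 cultures carry most of the spread. Such a likeness, picked as the highest of many, describes these arrays and says nothing of shared function.

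**Figure D4:**
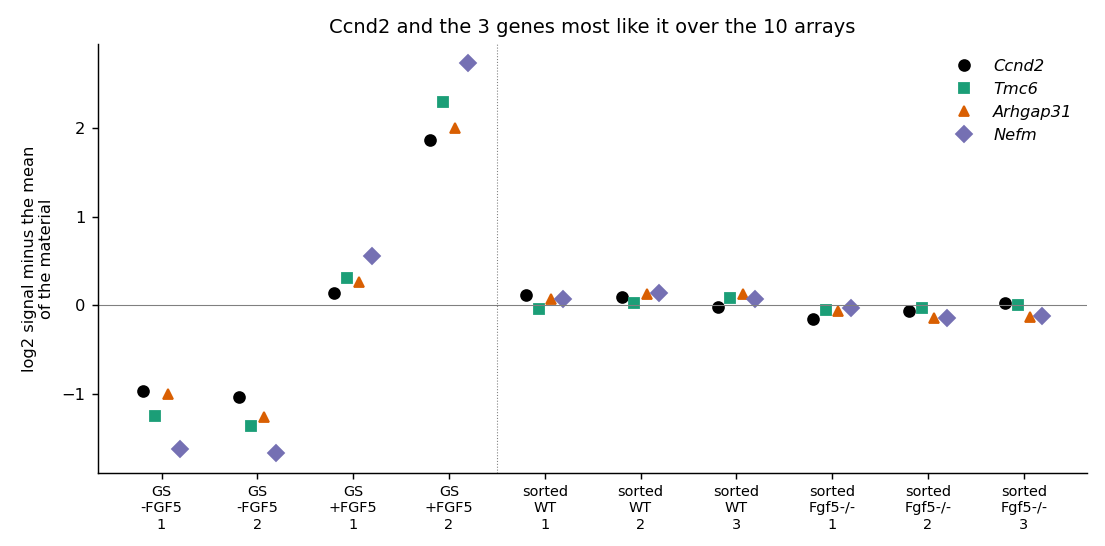
Log2 signal of *Ccnd2* and of the 3 genes with the most similar pattern on each array, minus the mean over the arrays of the same material. All 4 genes are lowest in the cultures without FGF5 and highest in replicate 2 with FGF5, and vary little among the 6 sorted samples.

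*Cdk4*, the kinase partner of D cyclins in many cell types, had 3 probes (NM_009870). On the main probe the signal was 4.69 and 4.64 with FGF5, 4.77 and 4.68 without FGF5, 5.18, 5.24 and 5.11 in WT cells, and 4.79, 5.15 and 5.08 in *Fgf5*-/- cells. The cultures lay close together and below all sorted samples, of which replicate 1 of the *Fgf5*-/- cells was the lowest. The level was 1.32-fold lower in cultured than in sorted cells (log2 difference -0.40, SE 0.10, adjusted p = 0.00819), and the log2 difference was -0.21 after quantile normalization and -0.25 with the percentile over probes well above background, both still called. The *Cdk4* probe whose sequence is printed above gave a 1.62-fold lower level without overlap (adjusted p = 0.00185). On the remaining probe the materials overlapped and the difference was not called (log2 difference -0.24, adjusted p = 0.209), although it passed when replicate 1 of the *Fgf5*-/- cells was left out (-0.35).

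With and without FGF5 the *Cdk4* probes differed by -0.06, 0.05 and -0.05 on the log2 scale (main, printed and remaining probe), with SEs of 0.16 to 0.18. In *Fgf5*-/- against WT cells the log2 differences were -0.17, -0.03 and -0.15 for the main, the printed and the remaining probe. Without replicate 1 of the *Fgf5*-/- cells they were -0.07, 0.16 and 0.08, so that the last pair of probes turned with that sample.

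*Cdk6*, the other kinase of D cyclins (NM_009873), was dim but well above background on all arrays. Its signal was -3.34 and -3.89 with FGF5, -3.27 and -3.35 without FGF5, -2.56, -3.32 and -3.31 in WT cells, and -2.91, -2.66 and -2.54 in *Fgf5*-/- cells. The highest WT sample reached the *Fgf5*-/- range, the other WT samples reached the cultures, and each group overlapped its neighbour in the order. Cultured cells were 1.49-fold lower (SE 0.19 on the log2 scale, adjusted p = 0.0249), a call that was lost in 8 of 21 alternative settings. These included the removal of replicate 2 with FGF5, of either culture without FGF5 or of replicate 3 of the *Fgf5*-/- cells, and the log2 difference lay between -0.72 and -0.44 with an array left out. It was -0.99 after quantile normalization and -0.24 after normexp background correction. *Fgf5*-/- cells were 1.28-fold higher than WT (log2 difference 0.36, SE 0.24, adjusted p = 0.764). This difference was 0.61, 0.23 and 0.23 without replicate 1, 2 and 3 of the WT cells, 0.46 without replicate 1 of the *Fgf5*-/- cells, and 0.10 after normexp background correction.

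Of the inhibitors, *Cdkn1a* encodes p21, which the p53 pathway and many stress signals induce. Its main probe (NM_007669; chr17:29237377-29237436 of mm9) is printed on the array as 10 spots. The WT cells had -0.89, -0.56 and -0.77, and the *Fgf5*-/- cells -1.49, -1.52 and -1.54. All *Fgf5*-/- values lay within a narrow band below the lowest WT value. The mean was 1.71-fold lower in *Fgf5*-/- cells, with a log2 difference of -0.78 (SE 0.12, 95% interval -1.06 to -0.49). This was the widest genotype difference among the members, and it did not pass the adjustment over all tested probes (adjusted p = 0.729). It was -0.79 without replicate 1 of the *Fgf5*-/- cells and between -0.85 and -0.58 over 18 alternative settings.

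In culture the *Cdkn1a* signal was -0.21 and -1.34 with FGF5, and -0.19 and -1.59 without FGF5. It followed the replicate number rather than FGF5, as samples numbered 1 were high and samples numbered 2 low in both conditions. Whether the numbers mark a shared culture was not stated. The other *Cdkn1a* probes were well above background on 0 and 1 of the 10 arrays and gave no measurable difference. Cultured and sorted cells overlapped (log2 difference 0.30, adjusted p = 0.4).

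*Cdkn1b* encodes p27, which holds cyclin-CDK complexes inactive in resting cells. On its main probe (NM_009875) the signal was 2.24 and 1.58 with FGF5, 2.41 and 2.20 without FGF5, 2.55, 2.5 and 2.56 in WT cells, and 2.30, 2.59 and 2.42 in *Fgf5*-/- cells. Replicate 2 with FGF5 was the lowest of all arrays, and the remaining cultures lay within or just below the sorted range. The log2 difference with FGF5 was -0.40 (SE 0.27, adjusted p = 1), or -0.07 without that sample. The genotypes overlapped, with a log2 difference of -0.10, or -0.03 without replicate 1 of the *Fgf5*-/- cells. Cultured cells were 1.3-fold lower than sorted cells (adjusted p = 0.0431), a call lost in 14 of 22 alternative settings. Only the removal of replicate 1 with FGF5 or of replicate 1 of the *Fgf5*-/- cells left it in place among the removals of 1 array, over which the log2 difference lay between -0.54 and -0.21. The dimmer probe was tested in sorted cells and in cultured against sorted cells and was called in neither.

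*Cdkn1c* encodes p57, an imprinted inhibitor (NM_009876). Its signal was 2.24 and 1.77 with FGF5, 2.26 and 1.90 without FGF5, 3.39, 3.60 and 3.54 in WT cells, and 2.96, 3.27 and 3.33 in *Fgf5*-/- cells. The sorted samples were all higher than the cultures, and the *Fgf5*-/- samples all lower than the WT samples. The level was 2.47-fold lower in culture (SE 0.14 on the log2 scale, adjusted p = 8.58e-05). The genotypes differed by -0.32 (SE 0.14, adjusted p = 0.729), or by -0.21 without replicate 1 of the *Fgf5*-/- cells. With FGF5 the log2 difference was -0.07 (SE 0.25).

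*Cdkn2c* encodes p18, an INK4 inhibitor (NM_007671). Its signal was -2.68, -2.65 and -2.97 in WT cells and -2.85, -3.22 and -3.10 in *Fgf5*-/- cells. In culture it was -4.83 and -5.26 with FGF5 and -6.53 and -5.93 without FGF5, and well above background only on the first of these arrays. All sorted samples were thus well above all cultures, and no FGF5 difference could be measured. On signals background-subtracted by the scanner software, the sorted cells were at least 3.86-fold higher. For this bound, each cultured array not well above background took the higher of its own signal and the lowest signal well above background there. The adjusted p of 5.53e-06 is that of the measured log2 difference of -2.73 and does not test this bound. After normexp background correction the measured log2 difference was -0.77, which falls short of the bound of -1.95, and was still called. The genotypes overlapped (log2 difference -0.29, SE 0.15, adjusted p = 0.748), and the difference was -0.39 without replicate 1 of the *Fgf5*-/- cells.

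*Rb1*, which encodes the pocket protein that D cyclin kinases phosphorylate (NM_009029; chr14:73595408-73595467 of mm9), ran against the other called members. Its signal was 2.66 and 2.12 with FGF5, 2.77 and 2.35 without FGF5, 1.96, 1.87 and 2.22 in WT cells, and 2.04, 2.20 and 2.04 in *Fgf5*-/- cells. The cultures were mostly higher, but replicate 2 with FGF5 lay within the sorted range. *Rb1* was 1.34-fold higher in cultured cells (SE 0.15 on the log2 scale, adjusted p = 0.0322), a call lost in 11 of 21 alternative settings. Among these were the removal of replicate 1 of either culture group, of replicate 1 or 2 of the WT cells, or of replicate 1 or 3 of the *Fgf5*-/- cells, and with an array left out the log2 difference lay between 0.29 and 0.56. The genotypes differed by 0.08 (SE 0.13), or 0.11 without replicate 1 of the *Fgf5*-/- cells, and the cultures by -0.17 (SE 0.27).

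Downstream of RB, 19 genes that E2F factors are known to activate were followed as a list, among them the *Mcm* helicase genes, *Pcna* and *Mki67*. With FGF5 all 19 had the higher mean signal, with a median log2 difference of 0.21 against -0.03 over all tested probes. None was called in limma, 0 had an unadjusted p under 0.05, and 5 of the 19 did not overlap between the conditions, a share close to the 22.8% of all tested probes. *Rrm2*, a subunit of ribonucleotide reductase, had -0.29 and 1.90 with FGF5 and -0.56 and 0.54 without FGF5. *Uhrf1*, which helps to keep DNA methylation through replication, had 3.98 and 4.74 with FGF5 and 3.82 and 3.74 without FGF5. For both genes replicate 2 with FGF5 was the highest culture, and without it the log2 difference of *Rrm2* turned from 0.82 to -0.28 and that of *Uhrf1* went from 0.58 to 0.19. The direction of the list depended on single cultures. Without replicate 2 with FGF5, 7 of the 19 genes were higher, 12 were lower and the median was -0.09. Without replicate 1 of the cultures without FGF5, 12 were higher, 7 were lower and the median was 0.06. The median was 0.51 without replicate 1 with FGF5 and 0.32 without replicate 2 of the cultures without FGF5, with 19 and 18 genes higher. Between samples numbered 2 all 19 were higher with FGF5 (median 0.44), and between samples numbered 1 this held for 11 (median 0.02).

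In *Fgf5*-/- against WT cells, 3 of these 19 genes were higher and 16 lower, with a median of -0.14, and 0 were called in limma or had an unadjusted p under 0.05. Quantile normalization made it 10 higher and 9 lower (median 0.00), and without replicate 1 of the *Fgf5*-/- cells 2 were higher, 17 were lower and the median was -0.08. The widest differences were those of *Rrm2* (-0.21, SE 0.13) and of the helicase gene *Mcm5* (-0.21, SE 0.16). Without that replicate they were -0.28 and -0.05, and quantile normalization made them -0.14 and -0.06. Of the 19 genes, 6 were lower without overlap, against 16.2% of all tested probes in either direction. Cultured cells had 17 of the 19 called lower than sorted cells and 1 called higher, with a median of -1.14, where 25.7% and 41.9% of all tested probes were called lower and higher. *Mki67*, a marker of cycling cells, was 14.1-fold lower (adjusted p = 2.41e-05) and *Gins1*, a replication factor, 4.69-fold lower (adjusted p = 6.57e-06). The gene called higher was *Tyms*, thymidylate synthase, at 1.56-fold (adjusted p = 0.00126).

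Of 12 pocket proteins and E2F factors, 11 were tested in culture, 8 of them higher and 3 lower with FGF5. The widest differences were those of *E2f8* (log2 difference 0.85, SE 0.68) and *E2f2* (0.73, SE 0.73). Without replicate 2 with FGF5 both turned, to -0.08 and -0.26, and the list had 3 higher and 8 lower, against 7 to 10 higher without one of the other cultures. In the genotype comparison 5 were higher and 7 lower, or 6 and 6 without replicate 1 of the *Fgf5*-/- cells, with *E2f5* and *Rbl1* each 0.30 higher in *Fgf5*-/- cells without overlap. Lower without overlap were *Rbl2* (log2 difference -0.64) and *E2f1* (-0.20), so that 4 of 12 did not overlap, against 16.2% of all tested probes. Without that replicate *E2f5*, *Rbl1*, *Rbl2* and *E2f1* stood at 0.29, 0.23, -0.68 and -0.11. The second *Rbl1* probe gave 0.04 and overlapped. *Rbl2* was well above background on 3 of 3 WT, 1 of 3 *Fgf5*-/- and 0 of 4 cultured arrays. It was thus tested only through the WT group, in which it is high. Neither comparison had a call in limma, and 0 and 3 genes, *Rbl2* among the latter, had an unadjusted p under 0.05, against 2.55% and 6.77% of all tested probes. In culture against sorted cells 8 were called lower, or 7 without *Rbl2*, and 2 higher, against 25.7% and 41.9% of all tested probes. The repressor gene *E2f8* was 9.78-fold lower (adjusted p = 6.28e-05) and the activator gene *E2f2* 5.24-fold lower (adjusted p = 0.000438), whereas *E2f4* was 1.78-fold and *E2f6* 1.33-fold higher. The *E2f6* call was lost when either culture group alone was compared with WT cells. For *Tfdp2* and *E2f7*, counted as lower, another probe was called the other way, 3.04-fold higher (adjusted p = 0.000676) and 1.34-fold higher (adjusted p = 0.00704), and a dimmer *E2f3* probe was called lower where the main one was not called.

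Among 11 other cyclins and kinases of the cycle, 10 were tested, and *Ccne2* was not well above background on any array. With FGF5 5 were higher and 5 lower, with log2 differences of 0.35 for *Ccne1* (cyclin E1) and 0.13 for *Cdk2*, and 3 to 8 were higher with each culture left out in turn. Without replicate 2 with FGF5 *Ccne1* turned to -0.07 and *Cdk2* stood at 0.00. Between the genotypes 4 were higher and 6 lower, the widest differences being those of *Ccnb1* (-0.20) and *Ccna2* (-0.19). Without replicate 1 of the *Fgf5*-/- cells both were -0.05 and the list had 5 higher and 5 lower. Both comparisons had 0 calls in limma and 0 genes at an unadjusted p under 0.05. In culture 6 of the 10 were called lower and 1 higher, against 25.7% and 41.9% of all tested probes. The lower ones were led by *Ccna2* (cyclin A2) at 8.06-fold (adjusted p = 1.94e-06) and *Ccnb2* (cyclin B2) at 5.54-fold, and *Mnat1*, a subunit of the CDK-activating kinase, was called higher at 1.42-fold (adjusted p = 0.00473). *Cdk1*, counted as lower, had another probe that was well above background on all 4 cultured and 0 of 6 sorted arrays. That probe was thus tested only through the cultures, in which it was at least 2.07-fold higher on signals background-subtracted by the scanner software.

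The other CDK inhibitors were *Cdkn2a*, *Cdkn2b* and *Cdkn2d*. All 3 had lower means in *Fgf5*-/- cells, with 0 calls in limma and 1 at an unadjusted p under 0.05, and under quantile normalization 1 of them was higher. Their median was -0.24, or -0.09 without replicate 1 of the *Fgf5*-/- cells. *Cdkn2a*, which encodes p16 and ARF, had 4.19, 4.35 and 4.30 in WT cells and 3.80, 3.90 and 3.94 in *Fgf5*-/- cells. On this main probe each *Fgf5*-/- sample lay below each WT sample (log2 difference -0.40, SE 0.10, adjusted p = 0.729, or -0.36 without that replicate). On its second probe the genotypes overlapped (-0.37). In culture *Cdkn2d* was 1.61-fold and *Cdkn2a* 1.43-fold lower than in sorted cells, both past the threshold, as 25.7% of all tested probes were in that direction. *Cdkn2b* was not called on its main probe, and its second probe was called higher (log2 difference 0.42). With FGF5 *Cdkn2b* and *Cdkn2a* were higher and *Cdkn2d* lower (log2 differences of 0.24, 0.04 and -0.22), with 0 calls in limma and 0 at an unadjusted p under 0.05. *Cdkn2b* turned to -0.12 and *Cdkn2d* stood at -0.14 without replicate 2 with FGF5, and *Cdkn2a* turned to -0.03 without replicate 1 with FGF5.

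The 12 genes for turnover of D cyclins and p27 and for activation of CDKs had 5 higher and 7 lower with FGF5, where *Cdc25c* (-0.36) and *Fbxo4* (-0.26) differed most. *Cdc25c* stood at -0.20 without replicate 2 with FGF5, and *Fbxo4* turned to 0.15 without replicate 2 of the cultures without FGF5. In *Fgf5*-/- cells 2 were higher and 10 lower, with *Gsk3b*, a kinase that marks cyclin D1 for degradation, at -0.41 (SE 0.15) without overlap and *Fbxo4* at 0.31. Neither comparison had a call in limma, with 0 and 1 genes at an unadjusted p under 0.05. Without replicate 1 of the *Fgf5*-/- cells *Gsk3b* stood at -0.47 and *Fbxo4* at 0.07, and the count was 5 higher and 7 lower. The other *Gsk3b* probes gave -0.07 and -0.20, and both overlapped. Cultured against sorted cells had 6 of the 12 called lower and 1 higher, against 25.7% and 41.9% of all tested probes. *Cdc25a*, a phosphatase that activates CDKs, was 7.26-fold lower (adjusted p = 4.06e-06), the CDK-inhibiting kinase gene *Wee1* was 2.23-fold lower, and *Cks2*, which encodes a CDK-binding subunit, was 1.25-fold higher (adjusted p = 0.0406). The *Cks2* call was lost when any 1 of the WT samples, of the cultures with FGF5 or replicate 1 without FGF5 was left out. A dimmer *Gsk3b* probe was called higher (log2 difference 1.30) and a dimmer *Cks1b* probe lower (-0.30), where the main ones were not called.

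**Figure D5:**
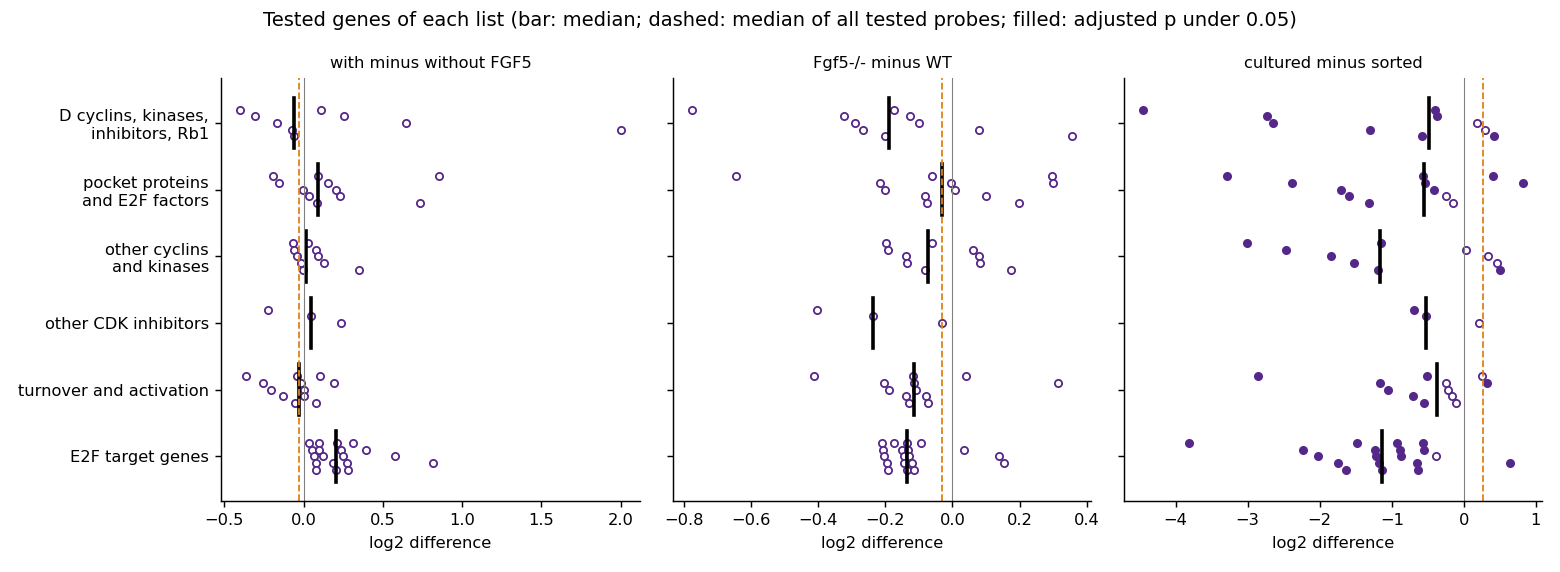
Log2 differences of the tested genes of each list in the 3 comparisons, each panel with its own horizontal scale, with bars at the list medians, a dashed line at the median of all tested probes and filled circles where the adjusted p was under 0.05. All 19 E2F target genes lie above 0 in the FGF5 comparison, which held only without replicate 1 with FGF5 when each culture was left out in turn, and 17 of them are called lower in culture than in sorted cells.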

How the data were processed

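Agilent 1-color arrays of 10 samples were analysed. For each array the authors deposited scanner output, in which Feature Extraction (10.7.1.1 in the file headers, 10.7.3.1 in the submitters' processing notes) gives the background-subtracted intensity of each spot. They also deposited a table of log2 values, shifted by the 75th percentile with a floor of 1.0, whose column medians ran from -3.744 to -3.101. Each of its columns differed from the scanner values, scaled as described next, by a constant between -0.204 and -0.131, whose origin is unknown.

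From the intensities, spots marked as outliers (117 to 205 per array) were left out. A floor of 1.0 was set (0 signals were under it, and 0 spots were saturated), log2 was taken, the array's 75th percentile was subtracted and spots of a probe were averaged. The number of arrays limits the precision. Probes entered a test if at least 1 group had them well above background throughout. Each experiment was fitted on its own, and cultured against sorted over all 10 arrays, with limma 3.58.1 (lmFit and eBayes, two-sided) in R 4.3.3, with Benjamini-Hochberg adjustment over all tested probes and a threshold of 0.05. Files were read with the data.table package (1.17.8), figures were drawn with matplotlib 3.10.9, and the code was tested on simulated data.

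Gene names and mm9 coordinates are those of the files, and 2 listed marker genes had no probe of that name. Named were all members, the 2 genes of each pathway list with the widest difference in each comparison (in cultured against sorted, the 2 widest past the threshold in each direction), markers with the highest level or widest difference of their list, each among genes that were well above background throughout the comparison, and the 3 genes most like each D cyclin by Pearson's r. *Rbl2*, *E2f1*, *E2f3*, *E2f7*, *Tfdp2*, *Ccne2*, *Cdk1*, *Cks1b*, *Col3a1*, *Col6a1*, *Dcn*, *Fbln1*, *Vim*, *Gfra1*, *Ret*, *Pou5f1* and *Nanos2*, and *Cdkn2a* and *Cdkn2d* beyond that rule, were named after their values were seen. So were *Tnp2* and *Cdh5*, and *Spo11* and *Cldn11* in cultured against sorted cells. The members and lists were chosen with earlier results of these data known. Groups share replicate numbers, which the labels do not give as pairs, so the fits have no block. Alternatives were quantile normalization, normexp background correction (offset 50, from mean spot signals for cultures alone, otherwise from medians), the authors' table, other percentiles, floors, filters and variance priors, outlier spots kept, a replicate block, all arrays in 1 fit, single groups compared, averaging over the probes of a gene, and each array left out.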

Additional observations from a re-analysis of the deposited data

How the results depend on the processing

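The counts of called probes stayed at 0 in culture in limma under every alternative run, and between 17958 and 25672 for cultured against sorted cells. For the genotypes the count was 0 in each alternative but the removal of 1 array, which gave 0 to 6 (6 without replicate 1 and 5 without replicate 3 of the *Fgf5*-/- cells, 1 without replicate 2 or 3 of the WT cells). With the replicate number as a block, 0 probes passed in culture (2549 at an unadjusted p under 0.05, smallest adjusted p = 0.15) and 0 in sorted cells. Deviations from the group means correlated between equally numbered cultures (r = 0.682) and not between equally numbered sorted samples (-0.413, -0.191 and -0.126). Between unequally numbered sorted samples of the 2 genotypes r ran from -0.469 to 0.474. With an array left out of a pair, the lone culture is assumed to vary like the other group.

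Of 184 member values in culture 171 kept their direction and their side of the threshold and 13 changed direction. Of 242 in the genotypes 232 kept them and 10 changed direction. Of 296 in cultured against sorted cells 251 kept them, 33 lost and 5 gained the threshold, and 7 changed direction. The cause was not tested. *Ccnd1*, *Ccnd2*, *Cdk4* and *Cdkn1c* were called lower in culture than in sorted cells on their main probes in each alternative that gave a value. So was *Cdkn2c*, but it passed the filter only through the sorted groups, in which it is high, and its repeated call is not read as stability.

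With 1 array left out, log2 differences in culture ranged from -0.202 to 1.5 (*Ccnd1*), -0.0555 to 0.568 (*Ccnd3*), -0.176 to 0.0766 and -0.0626 to 0.172 (*Cdk4*, remaining and printed probe), -0.59 to 0.811 (*Cdkn1a*), -0.306 to 0.16 (*Cdkn1c*) and -0.44 to 0.0997 (*Rb1*). Between genotypes they ranged from -0.285 to 0.0773 and -0.14 to 0.158 (*Cdk4*, same order) and -0.103 to 0.35 (*Cdkn1b*, dimmer probe), and for cultured against sorted from -0.0543 to 0.646 (*Cdkn1a*). The mean of all probes turned *Cdkn1a* in culture to -0.553 and *Cdkn1b* between genotypes to 0.0139. Quantile normalization turned genotype differences of *Ccnd2* to 0.0127 and of the printed *Cdk4* probe to 0.0601, and the percentile over probes well above background the latter to 0.0342. Normexp turned the dimmer *Cdkn1b* probe to -0.0558 between genotypes and 0.163 for cultured against sorted, and the second *Ccnd3* probe to -0.024 there. Cultures without FGF5 against WT cells gave -0.048 and -0.126 for the *Ccnd3* probes and -0.147 for *Cdkn1a*, which was -0.0364 for cultures with FGF5. Dim probes are the ones the background limits most.

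The medians and counts of the pathway and marker lists, and the values of their single genes, under these settings were alternatives chosen after seeing the data.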
